A study of Glycine max with 24 samples.

Results

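The subject here is a set of 59 soybean (Glycine max) genes whose read level was at least 8-fold lower in NaCl-treated roots than in untreated roots of both genotypes, while the same measure in leaves stayed between 0.67 and 1.5. The 59 were chosen from 57105 gene rows by their measured values. The level used was CPM, a gene's reads scaled to 1000000 gene reads in every library, and the ratio was mean CPM with NaCl plus 0.5 over mean CPM without NaCl plus 0.5. A gene belonged to the set when this ratio was at most 1/8 in GmNFYA roots and in Jack roots, and within the stated range in the leaves of both. The falls in root and the leaf ratios are therefore a description of how the genes were picked, and no test of them is given.

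Gene-level read counts came from leaves and roots of a transgenic soybean labelled as overexpressing GmNFYA, and of the wild-type cultivar Jack. The 8 groups were GmNFYA roots with 150 mM NaCl for 6 h, untreated GmNFYA roots, Jack roots with 150 mM NaCl for 6 h, untreated Jack roots, and the same 4 for leaves, with 3 libraries each. The labels give untreated plants as 0 h and no untreated group at 6 h, so NaCl and the elapsed time cannot be told apart. The labels used here name neither the promoter of the transgene, nor the number of transgenic lines, nor the plants behind each replicate, and p-values measure the spread between these libraries, which may be technical.

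A root exposed to salt meets both a lower water potential outside its cells and an influx of sodium ions, and it is the first organ to do so. Over the first hours plant roots are known to slow growth and to change the transcripts of transport, cell wall and hormone genes on a large scale. NF-Y transcription factors are trimers of NF-YA, NF-YB and NF-YC, in which NF-YA reads the CCAAT sequence of promoters. None of the IDs could be paired with a name or a description in the tables used here (0 of 57105 matched a RefSeq gene table of 59048 genes), so no role is given for any of the 59. Tissue markers could not be looked up by name for the same reason. Genes are called by the number that the root table writes after Glyma. and the leaf table after GLYMA_. The number before the G is the chromosome in the naming of soybean gene models.

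Libraries held 17005570 to 23459341 gene reads in root and 17696429 to 21053889 in leaf. The share of reads aligned to more than 1 place was 5.53 ± 0.343% in untreated GmNFYA roots and 6.4 ± 0.269% in Jack roots with NaCl, and stood apart in untreated Jack roots, at 9.64 ± 0.59% (SD, n = 3). In leaf, 1 GmNFYA library with NaCl, replicate 3, had 9.29%. Such reads count for no gene, so levels are uncertain for genes with near-identical copies. They are also uncertain for overlapping and antisense genes, since no strand setting is stated.

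Together the 59 genes took 0.0204 to 0.0247% of gene reads in GmNFYA roots with NaCl and 0.408 to 0.425% in untreated GmNFYA roots. In Jack they took 0.0211 to 0.0231% in roots with NaCl and 0.318 to 0.371% in untreated roots. The summed level was 223 ± 22 CPM with NaCl and 4175 ± 89.2 CPM without it in GmNFYA roots, and 224 ± 11.2 CPM with NaCl and 3387 ± 280 CPM without it in Jack roots (SD, n = 3). What was left with NaCl was 5.34% of the untreated sum in GmNFYA and 6.61% in Jack. The 2 genotypes thus differed in the untreated sum, with no overlap between libraries (4076 to 4250 CPM in GmNFYA, 3183 to 3707 CPM in Jack), and overlapped with NaCl (204 to 247 CPM in GmNFYA, 211 to 231 CPM in Jack). In these whole-organ samples, fewer cells of a type and less RNA per cell cannot be told apart.

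**Figure D1:**
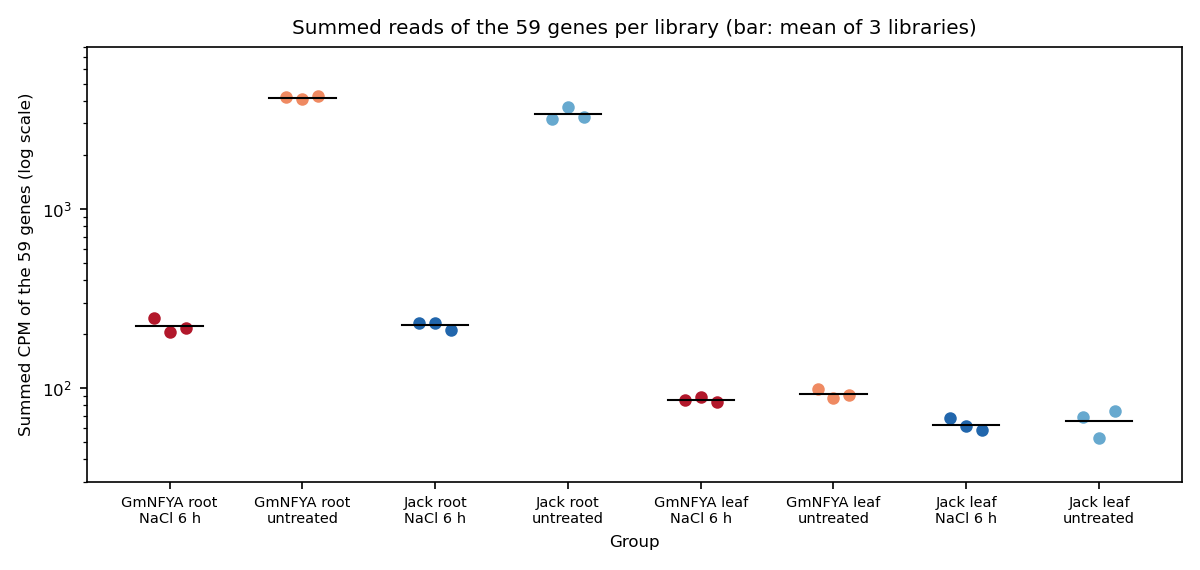
Summed CPM of the 59 genes in each of the 24 libraries, on a log axis, by group, with points for libraries and a bar for the mean of 3. Roots with NaCl sit at 204 to 247 CPM, untreated roots at 3183 to 4250 CPM, and leaves at 52.3 to 98.2 CPM.

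All 59 genes passed the low-count filter in root. The median ratio corresponded to a 15.6-fold fall in GmNFYA (8.31 to 71.1-fold) and a 13.1-fold fall in Jack (8.05 to 48.4-fold). Of the 25330 genes with at least 3.5 CPM in both untreated root groups, the lowest level a member can have, the 59 made up 0.233%. The ratio was at or below 1/16 in both genotypes for 14 genes and at or below 1/32 in both for 2. It was lower in GmNFYA than in Jack for 41 of the 59, a comparison of 2 ratios that was not tested. The same held for 32 of the 48 genes that met the root limit but not the leaf condition. The constant of 0.5 CPM weighs less where the untreated level is higher, and the median untreated level was 31.3 CPM in GmNFYA and 17.9 CPM in Jack. Fitted log2 fold changes, which do not use this constant, had medians of -4.28 in GmNFYA roots and -4.44 in Jack roots.

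The 2 genes at or below 1/32 in both genotypes were 02G135200 and 08G122200. 02G135200 had 0.386, 0.446 and 0.72 CPM in GmNFYA roots with NaCl, against 71.9, 66.2 and 77.5 CPM in untreated GmNFYA roots. In Jack it had 1.66, 0.457 and 0.655 CPM in roots with NaCl and 47.6, 51.5 and 49.7 CPM in untreated roots. Its level with NaCl was 0.721% of the untreated level in GmNFYA and 1.87% in Jack. 08G122200 had 1.06, 1.59 and 1.01 CPM with NaCl and 65.6, 63.7 and 90.7 CPM without it in GmNFYA roots. In Jack roots it had 5.29, 1.43 and 1.82 CPM with NaCl and 116, 130 and 133 CPM without it. No library with NaCl came near an untreated one for either gene, and Jack replicate 1 was the highest of the 3 Jack libraries with NaCl for both.

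In roots with NaCl, 28 of the 59 genes averaged under 1 CPM in GmNFYA and 30 in Jack, 25 of them in both. 16G045100 kept the lowest share of its untreated level in GmNFYA, and 14G054300 in Jack. 14G054300 had 0 reads in the 3 Jack root libraries with NaCl, against 12.1, 13.4 and 13.8 CPM in untreated Jack roots, which is at least 265-fold lower when 3 counts over the group are taken as the floor. In GmNFYA it kept 17 reads over 3 libraries (0.386, 0.149 and 0.288 CPM), against 19, 18.7 and 16.9 CPM without NaCl. 16G045100 had 2 reads in the 3 GmNFYA root libraries with NaCl and 1931 reads in the untreated ones, and in Jack 1 read with NaCl and 319 without. These genes were near the limit of what the depth can show, and for them the constant of 0.5 CPM sets the size of the ratio. It also weighs on the ratios of the other genes under 1 CPM with NaCl, so the ratio does not rank the falls of such genes. 07G033700, for example, kept 0.633% of its untreated level in GmNFYA and 0.413% in Jack, against 1.66 and 2.25% for 08G122200.

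At the limit of 1/8, the last genes inside were 11G063100 and 18G055400, whose larger root ratios were 0.124 and 0.12. The first genes outside, with leaf ratios in range, were 03G039800 at 0.125124 and 11G030300 at 0.127. 11G063100 averaged 1.64 CPM with NaCl and 21.6 CPM without in GmNFYA roots, and 1.79 and 17.9 CPM in Jack roots. 03G039800 averaged 2.75 CPM with NaCl and 29.1 CPM without in GmNFYA roots, and 0.45 and 7.09 CPM in Jack roots. Levels and falls ran on across the limit without a gap.

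**Figure D2:**
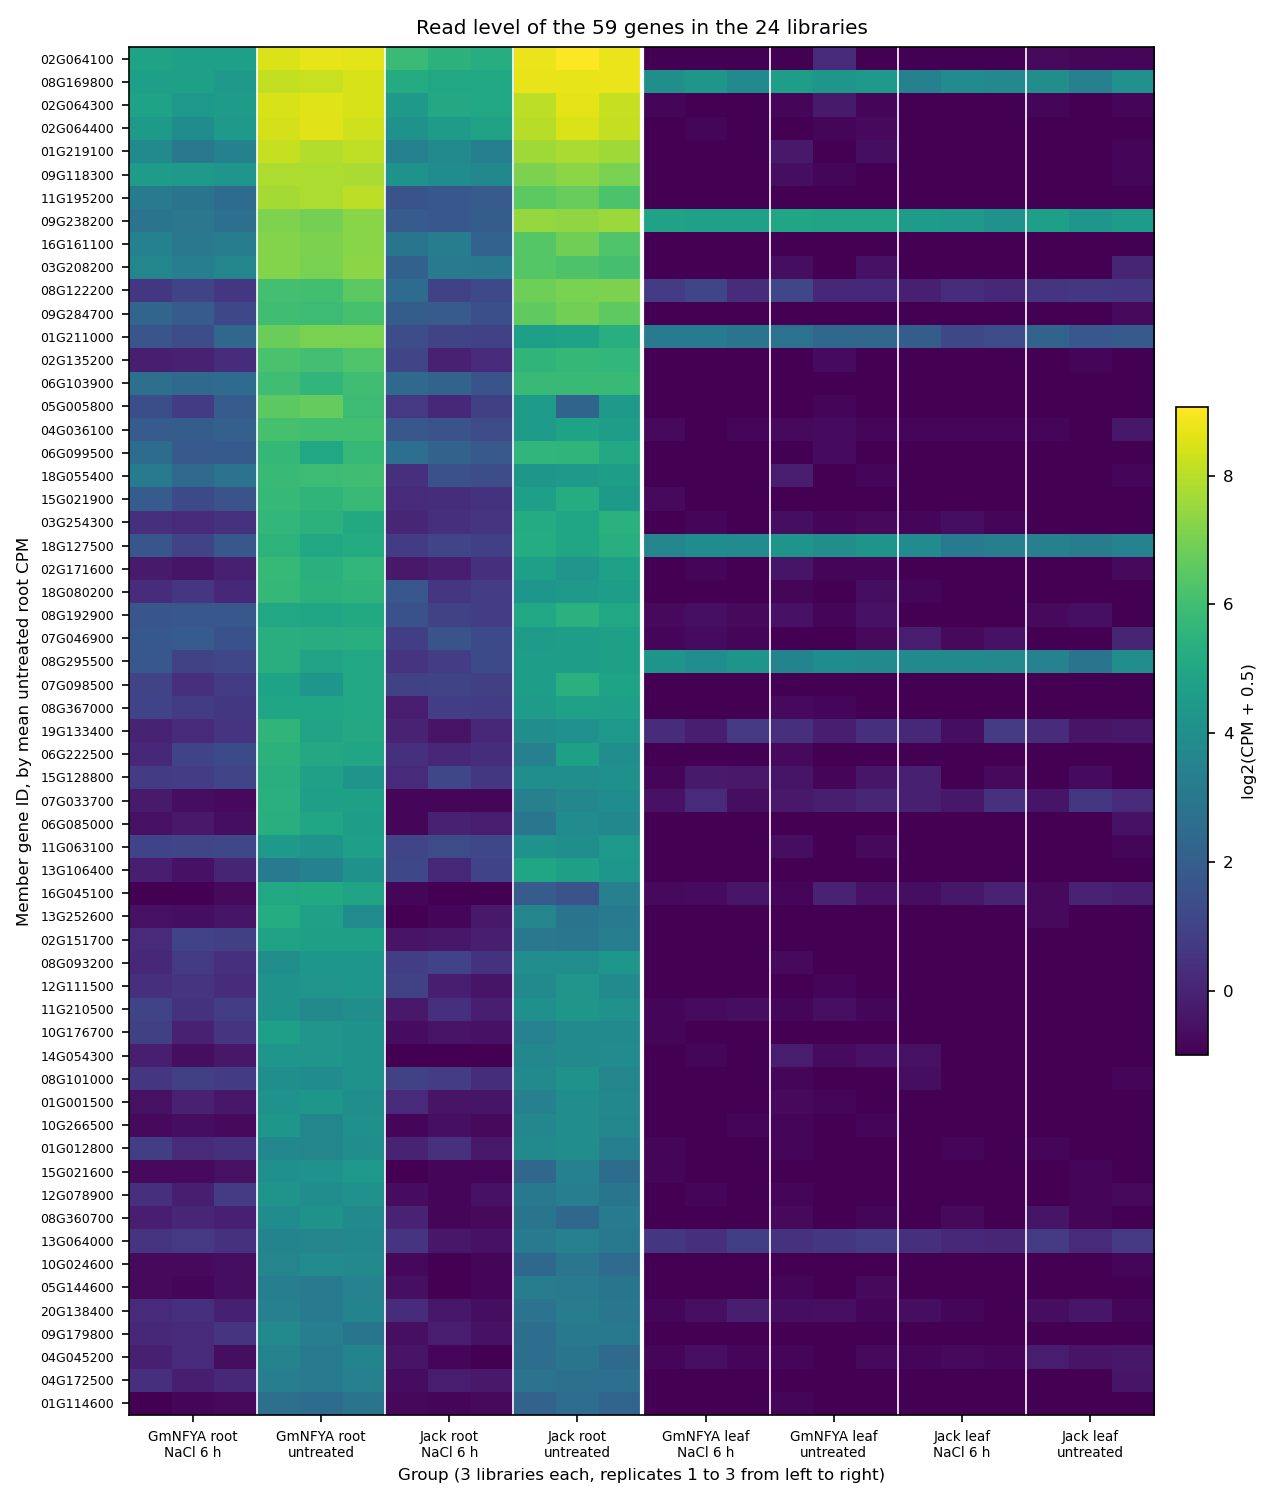
Level of each of the 59 genes (rows, ordered by mean untreated root CPM) in the 24 libraries (columns, 3 per group), as log2(CPM + 0.5). Untreated roots are high, roots with NaCl low, and most rows are dark in all 12 leaf libraries, except for 5 genes with at least 1 CPM in every leaf group.

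For most of the 59, the leaf condition was met at a leaf level near 0. Of the 59, 50 averaged under 0.5 CPM in each of the 4 leaf groups, 4 more had their highest leaf group between 0.5 and 1.2 CPM, and 5 had at least 1 CPM in every leaf group. In 7 genes, the 12 leaf libraries, with 236749017 gene reads together, held 0 reads, which allows a level of up to 0.0127 CPM, and in 17 more they held 1 to 3 reads (counting error only). With 0.5 added to both means, a gene under 0.5 CPM in both groups can give a ratio no lower than 0.5 and no higher than 2, whatever its reads do. The leaf ratios of the 50 genes ran from 0.689 to 1.13 in GmNFYA and from 0.71 to 1.27 in Jack. Only 9 of the 59 passed the low-count filter in leaf. A response in root and none in leaf was therefore measurable for few of the 59, and for the others the data show a root gene with a leaf level near 0.

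Summed over the 50 genes, leaf reads were not level. In GmNFYA leaves with NaCl the 50 genes held 17, 26 and 28 reads, against 72, 51 and 47 in untreated GmNFYA leaves, and the libraries did not overlap. In Jack leaves they held 34, 18 and 19 reads with NaCl and 27, 28 and 66 without, and the libraries overlapped. Per gene read, the sum with NaCl was 0.416 of the untreated sum in GmNFYA and 0.578 in Jack, where untreated replicate 3 held the 66 reads. The rule used the leaf ratios of these genes, so the sums are a description and were not tested. Scaled to gene reads, levels with NaCl were lower than without for 30 of the 50 genes in GmNFYA and 23 in Jack. They were higher for 8 and 6, and equal for 12 and 21. Genes with equal reads can count among the lower, since levels were scaled to library totals. An example is 01G012800, with 1 read with NaCl and 1 without in either genotype. In untreated GmNFYA leaves, replicate 2 held 19 reads of 3 chromosome 2 genes described below, against 1 and 3 in the other replicates, and 32 reads of the other 47 genes together. Whether these few leaf reads came from leaf cells was not tested.

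The 5 genes with a leaf level that allows the comparison, chosen here after their values were seen, were 09G238200, 08G169800, 08G295500, 18G127500 and 01G211000. 09G238200 had 27.6, 26.9 and 26.6 CPM in GmNFYA leaves with NaCl, against 30.6, 28.9 and 28.9 CPM in untreated GmNFYA leaves. In Jack leaves it had 22.6, 21 and 17.5 CPM with NaCl and 25, 19 and 22.4 CPM without. In GmNFYA roots the same gene had 6.91, 7.34 and 5.91 CPM with NaCl and 138, 125 and 153 CPM without, and in Jack roots 3.2, 2.85 and 3.38 CPM with NaCl and 175, 165 and 186 CPM without. Leaf levels thus differed little with NaCl (fitted log2 fold change -0.18 ± 0.12 in GmNFYA and -0.20 ± 0.12 in Jack, SE), beside root falls of 19.3-fold and 48.4-fold.

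08G169800 had 15.7, 19.6 and 13.5 CPM in GmNFYA leaves with NaCl and 24.5, 19.8 and 21.1 CPM in untreated ones, with log2 fold changes of -0.48 ± 0.21 in GmNFYA leaves and -0.26 ± 0.21 in Jack leaves. In root it had 25.3, 26.2 and 20.9 CPM with NaCl and 282, 301 and 355 CPM without in GmNFYA, and 36.4, 32.3 and 31.4 CPM with NaCl and 429, 416 and 430 CPM without in Jack. The leaf change of 18G127500 was -0.42 ± 0.16 in GmNFYA and 0.01 ± 0.17 in Jack, and that of 08G295500 was 0.32 ± 0.24 and 0.19 ± 0.24. For 01G211000 the signs differed, with 0.54 ± 0.24 in GmNFYA leaves and -0.57 ± 0.26 in Jack leaves. Its leaf ratio in GmNFYA was 1.47, near the limit of 1.5, and there were 3 libraries whose single omission removed it from the set. In leaf, then, the 5 genes were within a factor of 1.5 of the untreated level by rule, and in root they were 12.6 to 48.4-fold lower.

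**Figure D3:**
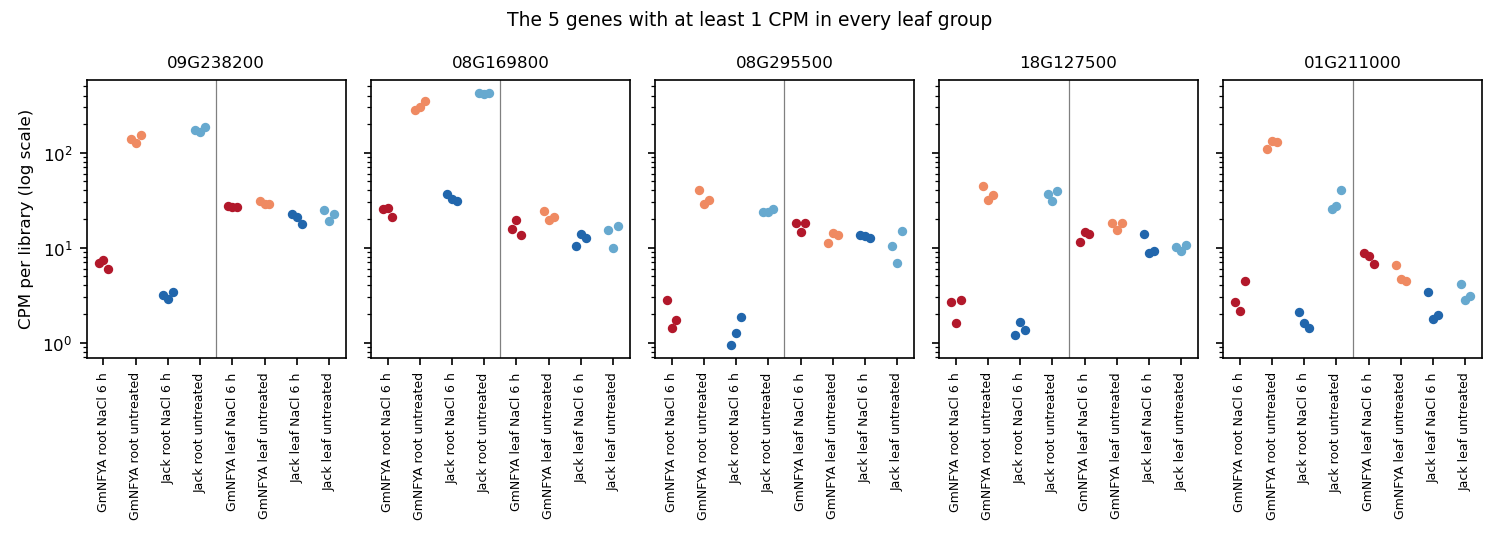
CPM per library (log axis) of the 5 genes with at least 1 CPM in every leaf group, for the 4 root groups left of the grey line and the 4 leaf groups right of it, 3 points per group. In each gene untreated roots lie above all leaf libraries. Leaf libraries with and without NaCl differ less than root libraries do. In GmNFYA leaves they do not overlap, with 2 genes higher and 3 lower with NaCl. The rule used these leaf values, and the share of all genes without overlap in this comparison was not counted.

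Without NaCl, all 3 root libraries lay above all 3 leaf libraries for each of the 59 in both genotypes, with the 2 tables joined by gene number. Of the 39003 genes that passed the low-count filter over all 24 libraries, 51.8% did so in GmNFYA and 49.7% in Jack. The rule itself asks for at least 3.5 CPM in untreated root, so this order is a description and was not tested. In the untreated leaf group of the same genotype 15 genes had 0 reads in GmNFYA and 24 in Jack, and roots were then at least 176 to 4490-fold higher in GmNFYA and at least 93.7 to 5992-fold higher in Jack. 11G195200 is the gene behind the upper bound in GmNFYA. It averaged 235 CPM in untreated GmNFYA roots and 89.8 CPM in untreated Jack roots, with no read in any leaf library.

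With NaCl, this order held for most genes but not for all. The 3 root libraries stayed above the 3 leaf libraries of the same treatment for 48 genes in GmNFYA and 44 in Jack, 42 of them in both. Among the 39003 genes, this held for 42.8% in GmNFYA, 37.9% in Jack and 33.4% in both. For 4 genes, 09G238200, 08G295500, 18G127500 and 16G045100, every root library with NaCl lay below every leaf library with NaCl in both genotypes, against 27.4% of the 39003 genes. For 16G045100 this order rested on few reads, 2 in root and 9 in leaf with NaCl in GmNFYA, and 1 and 19 in Jack. Its highest GmNFYA root library with NaCl was at 0.096 CPM and its lowest leaf library at 0.0997 CPM. 18G127500, for example, had 2.7, 1.59 and 2.78 CPM in GmNFYA roots with NaCl, against 11.4, 14.5 and 14 CPM in GmNFYA leaves with NaCl. 08G169800 kept its order, at 24.1 ± 2.82 CPM in GmNFYA roots with NaCl and 16.3 ± 3.09 CPM in GmNFYA leaves with NaCl (SD, n = 3).

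The nearest comparison was with the 48 other genes at or below the root limit in both genotypes, which failed the leaf condition. In these, 26 had leaf ratios below 0.67 in both genotypes, 41 in at least 1, and 7 had a ratio above 1.5 in at least 1. Their leaf level was higher, with 34 of 48 at 1 CPM or more in every leaf group, against 5 of the 59. The median of the highest leaf group was 0.0672 CPM in the 59 and 9.97 CPM in the 48. Root falls of the sets lay close together, with median ratios of 0.0642 and 0.0725 in GmNFYA roots and 0.0766 and 0.0869 in Jack roots for the 59 and the 48. The rule bears on this difference in leaf level, since the constant of 0.5 CPM holds the ratios of genes with few leaf reads close to the leaf range.

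**Figure D4:**
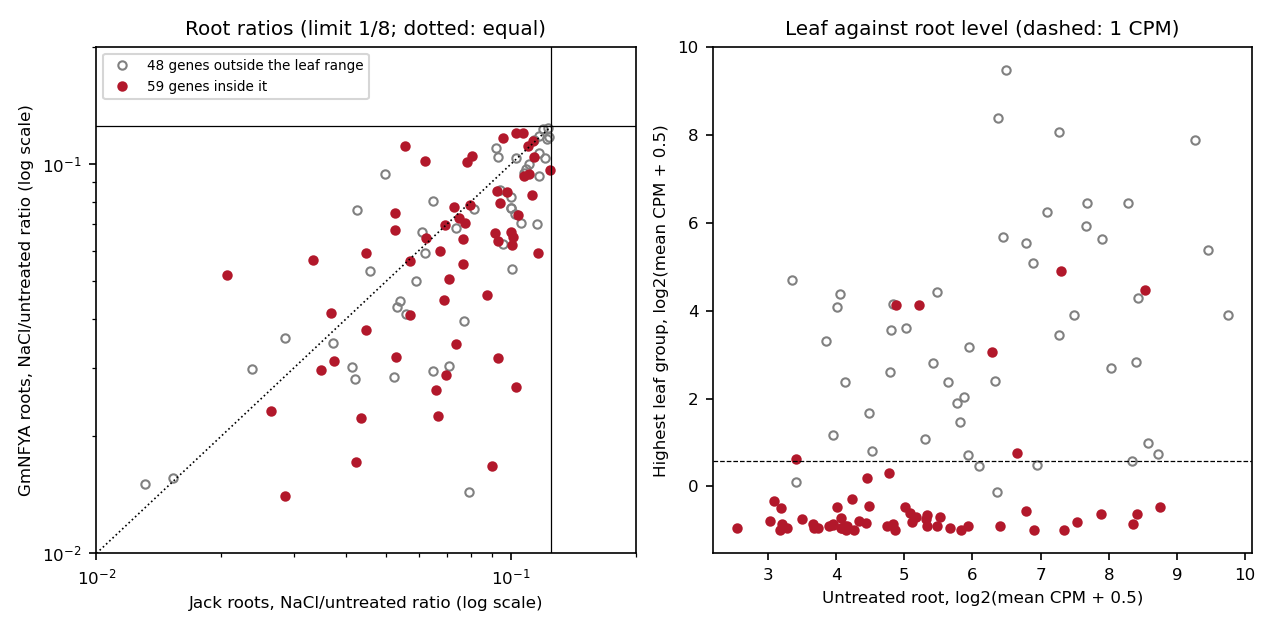
Left, NaCl/untreated ratio in GmNFYA roots against Jack roots (log axes) for the 59 genes (filled) and the 48 that failed the leaf condition (open), with lines at 1/8 and a dotted line of equal ratios. Right, highest leaf group mean against mean untreated root level, both as log2(CPM + 0.5), with a dashed line at 1 CPM, below which most filled points lie.

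By ID, the 59 genes fell on 19 of the 20 chromosomes, with 8 on chromosome 8, 6 on chromosome 2 and 0 on chromosome 17. Of the 25330 genes with at least 3.5 CPM in both untreated root groups, 7% were on chromosome 8, 5.63% on chromosome 2 and 5.07% on chromosome 17. Most of the genes stood alone, and 5 of the 59 lay within 5 IDs of another.

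A run on chromosome 2 held 02G064100, 02G064300 and 02G064400, and the ID between them, 02G064200, met the root limit in GmNFYA but not in Jack. 02G064100 had 27.8, 25.3 and 25.1 CPM in GmNFYA roots with NaCl and 371, 417 and 401 CPM in untreated GmNFYA roots. In Jack roots it had 56.8, 44.1 and 38 CPM with NaCl and 431, 535 and 437 CPM without. 02G064300 had 28, 20 and 22.2 CPM with NaCl and 350, 375 and 354 CPM without in GmNFYA roots, and 21.2, 32.8 and 32.4 CPM with NaCl and 268, 401 and 287 CPM without in Jack roots. The ratios of the 3 genes were 0.067, 0.0665 and 0.0553 in GmNFYA and 0.1, 0.0918 and 0.0766 in Jack. 02G064200 had ratios of 0.123 and 0.154, from a lower level of 8.31 CPM in untreated GmNFYA roots and 7.58 CPM in untreated Jack roots. With NaCl it averaged 0.583 CPM in GmNFYA roots and 0.748 CPM in Jack roots. At these levels the constant of 0.5 CPM weighs more than for the 3 genes, so the ratios do not rank its fall against theirs. These 3 genes held 29.3 to 31.5% of the summed CPM of the 59 in GmNFYA roots with NaCl, against 25.4 to 29.1% in untreated GmNFYA roots, and 41.2 to 46.3% in Jack roots with NaCl, against 29.9 to 35% in untreated Jack roots. CPM is not divided by transcript length, so it does not rank the genes by transcript number. Reads of similar neighbouring copies may have been split or dropped in counting.

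The other run, on chromosome 15, held 15G021600 and 15G021900 with 2 IDs between them that behaved otherwise in leaf. 15G021600 averaged 0.129 ± 0.0544 CPM in GmNFYA roots with NaCl and 17.8 ± 1.87 CPM without, and 15G021900 averaged 2.57 ± 0.727 and 51.6 ± 3.82 CPM (SD, n = 3). 15G021600 averaged at most 0.0178 CPM in any leaf group and 15G021900 at most 0.0332 CPM. 15G021800 had lower root ratios than either, at 0.0156 in GmNFYA and 0.0153 in Jack. Those of 15G021600 were 0.0345 and 0.0739, and those of 15G021900 0.059 and 0.0446. With NaCl, 15G021600 kept 0.728% of its untreated root CPM in GmNFYA and 0.531% in Jack. 15G021800 averaged 3.06 CPM with NaCl and 228 CPM without in GmNFYA roots, and 0.715 and 78.8 CPM in Jack roots. The constant of 0.5 CPM raises the ratio more at the lower level of 15G021600, so the ratios do not rank these falls. The leaf ratios of 15G021800 were 2.27 in GmNFYA and 4.99 in Jack. 15G021700 had root ratios of 0.18 and 0.385 and leaf ratios of 3.9 and 4.91. These 2 IDs were chosen only for their place in the run.

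Genotype was a comparison that the rule did not use, although it draws on the same libraries. In untreated roots, 24 of the 59 genes were called higher in GmNFYA than in Jack (40.7%) and 5 lower (8.47%) by edgeR's quasi-likelihood test, with Benjamini-Hochberg adjustment over the 36390 genes tested. Among these, 10.7% were called higher and 12.6% lower. The median log2 difference was 0.39 over the 59 and 0.01 over all genes tested. All 3 GmNFYA libraries lay above all 3 Jack libraries for 34 of the 59 (57.6%), against 28.1% of all genes tested. The 48 genes outside the leaf range gave similar shares, with 22 called higher (45.8%) and 4 lower. Jack untreated roots are also the group with 9.64% of reads aligned to more than 1 place, and the part of that share in the result was not tested. By any of the 17 alternatives 21 to 29 genes were called higher and 3 to 6 lower.

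The largest differences in that direction were in 16G045100 and 05G005800. 16G045100 had 31.2, 34 and 28.6 CPM in untreated GmNFYA roots and 3.23, 2.47 and 9.91 CPM in untreated Jack roots (log2 difference 2.46 ± 0.39, SE, edgeR adjusted p = 0.00142). 05G005800 had 91.9, 103 and 59.1 CPM in GmNFYA and 22.9, 4.29 and 20.8 CPM in Jack (log2 difference 2.30 ± 0.50, edgeR adjusted p = 0.0111, and 0.0714 when the fit held the 2 compared groups alone). Of the 59 genes, 15 (25.4%) were called at least 2-fold higher, against 2.79% of all genes tested. 01G211000, which is also read in leaf, had 110, 131 and 130 CPM in GmNFYA and 25.4, 27.6 and 40.3 CPM in Jack (log2 difference 1.90 ± 0.20, edgeR adjusted p = 4.39e-05).

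The 5 genes lower in untreated GmNFYA roots were 13G106400, 08G122200, 09G284700, 08G169800 and 09G238200. 13G106400 had 8.5, 10.3 and 17.2 CPM in GmNFYA and 30.9, 26.1 and 19.2 CPM in Jack (log2 difference -1.17 ± 0.28, edgeR adjusted p = 0.0106, and 0.0511 without GmNFYA replicate 2). The call of 08G122200 (log2 difference -0.87 ± 0.27, edgeR adjusted p = 0.0435) was lost in 11 of 17 alternatives, with adjusted p of up to 0.145. 08G169800 and 09G238200, both also read in leaf, differed by -0.53 ± 0.10 and -0.43 ± 0.09 (edgeR adjusted p = 0.00162 and 0.00331), and 09G284700 by -0.78 ± 0.18 (edgeR adjusted p = 0.00818). All GmNFYA libraries lay below all Jack libraries for 6 of the 59 (10.2%), these 5 and 02G064100, against 14.2% of all genes tested.

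With NaCl, 10 of the 59 genes were called higher in GmNFYA roots than in Jack roots (16.9%) and 4 lower (6.78%), against 7.05 and 9.9% of all genes tested. Of the 24 genes higher without NaCl, 6 were also called higher with it, 1 was called lower, and 17 were not called. With NaCl the 17 averaged 0.032 to 20.7 CPM in GmNFYA roots and 0.0142 to 14.8 CPM in Jack roots. In the fit of the 2 compared groups alone, 42 of the 59 passed the low-count filter, and 5 were called higher and 3 lower. 12G078900 had 0.773, 0.397 and 1.25 CPM in GmNFYA roots with NaCl and 0.128, 0.0571 and 0.202 CPM in Jack roots with NaCl (log2 difference 2.44 ± 0.51, edgeR adjusted p = 0.00448). 14G054300, with 0 reads in Jack, was at least 5.56-fold higher in GmNFYA (edgeR adjusted p = 0.0017). These 2 genes passed the filter through untreated roots, and neither passed it, nor was tested, in the fit of the 2 NaCl groups alone.

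The 4 genes lower in GmNFYA roots with NaCl were 13G106400, 18G080200, 02G064100 and 08G169800. 02G064100 was at 26.1 ± 1.52 CPM in GmNFYA and 46.3 ± 9.62 CPM in Jack (SD, n = 3, log2 difference -0.96 ± 0.13, edgeR adjusted p = 0.000172). 08G169800 differed by -0.60 ± 0.11 (edgeR adjusted p = 0.00197). The call of 13G106400 (log2 difference -1.95 ± 0.59, edgeR adjusted p = 0.0426) was lost in 9 of 17 alternatives, with adjusted p of up to 0.163. 18G080200 had 0.725, 0.992 and 0.624 CPM in GmNFYA and 2.86, 1.03 and 1.26 CPM in Jack (log2 difference -1.31 ± 0.35, edgeR adjusted p = 0.0222). Without Jack NaCl replicate 1 this difference was -0.69, and it was lost there and without GmNFYA NaCl replicate 1 or 3 (edgeR adjusted p = 0.0949, 0.0743 and 0.084) and when the fit held the 2 compared groups alone (0.0699).

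**Figure D5:**
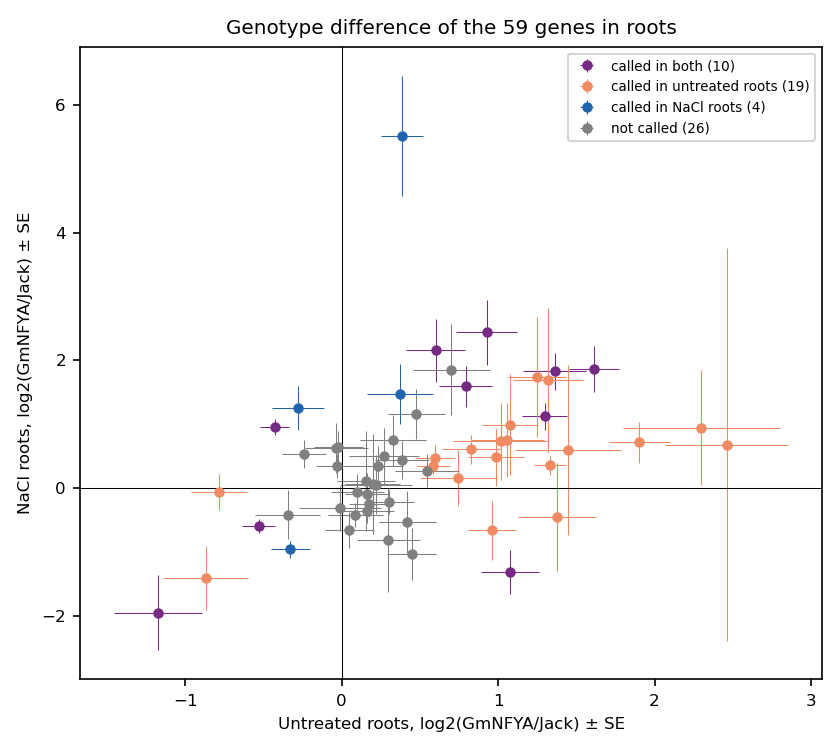
Log2 difference GmNFYA over Jack of the 59 genes in roots with NaCl (vertical) against untreated roots (horizontal), with SE bars. Of the 59 genes, 10 were called in both, 19 in untreated roots only, 4 in NaCl roots only and 26 in neither, and more points lie right of 0 than left of it.

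In leaves the genotypes could be compared for 9 of the 59 genes. Without NaCl, 1 was called, 18G127500, at 18, 15.2 and 18 CPM in GmNFYA and 10.1, 9.18 and 10.7 CPM in Jack (log2 difference 0.69 ± 0.16, edgeR adjusted p = 0.0325), against 2.3% of all genes tested called higher. The call was lost when Jack replicate 1 or 2 or GmNFYA replicate 1, 2 or 3 was left out (edgeR adjusted p = 0.093, 0.0763, 0.117, 0.0531 and 0.1245). With NaCl, 1 was called, 01G211000, at 8.72, 8.16 and 6.73 CPM in GmNFYA and 3.42, 1.76 and 1.94 CPM in Jack (log2 difference 1.66 ± 0.25, edgeR adjusted p = 0.00148), against 3.65% of all genes tested. It was higher in GmNFYA in 3 of 3 libraries, and all 17 alternatives kept the call.

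Replicate libraries of untreated roots also differed in the level of the 59 genes. The median coefficient of variation was 11.2% in GmNFYA and 15.4% in Jack for the 59, against 8.58 and 8.59% for the 25330 genes with at least 3.5 CPM. In untreated Jack roots, 32 of the 59 genes had their highest value in replicate 2 and 7 in replicate 1, a count not made over all genes. In that replicate 2 the median gene of the 59 lay 0.11 above its group mean on the log2(CPM + 0.5) scale, while the median of the 25330 genes lay 0.01 above it.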

How the data were processed

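Raw read counts, whole numbers for each gene, were deposited by the authors as separate tables of 12 root and 12 leaf libraries. The submitters' processing notes name HISAT2, featureCounts and DESeq2 with no role, order or version. No source used here states the genome build or strand setting. The 5 rows of unassigned reads in each table stayed out of library sizes and tests, and 70.8 to 81.2% of counted reads were assigned to genes.

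CPM was computed from column sums and the 59 genes were found by the stated ratios. Fold changes, SE (size over the square root of F) and adjusted p came from edgeR 4.0.16 in R 4.3.3, with filterByExpr (minimum count 10), TMM scaling and robust dispersions over the groups of a tissue, with a joint fit of all 24 libraries for root against leaf. Planned tests of NaCl in root and of root against leaf are not reported, since the rule used those values. Calls were made where p, adjusted after Benjamini and Hochberg, was under 0.05. The test was also run on simulated counts with known changes. Every gene had the same spread there, so that run does not measure how the test performs on these libraries. Alternatives were DESeq2 1.42.0, RLE size factors, no filter, fits of the compared groups alone, the replicate block, and leaving out each library. Figures and tables used Python 3.11.15.

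The genes and lists were chosen with earlier results of these data known. IDs named in the text are the 2 extremes for each property described (level, fall, leaf level, limit, genotype difference per direction) and the members of runs. Other IDs were named after their values were seen, and the gene lists planned by description stayed empty, because no ID could be matched to a description.

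No pair of libraries in a group agreed within sampling noise. Libraries with the same replicate number deviated together in Jack and GmNFYA leaves with NaCl (every correlation of their deviations over 0.1, 0.12 to 0.263), and not in the other genotype comparisons. Between untreated and NaCl libraries of the same number, correlations were 0.0877 to 0.308 in Jack leaves and 0.0824 to 0.204 in Jack roots. Libraries of different numbers were not compared, and the labels state no pairing. No sequence is shown, since no table used here holds one for these IDs.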

Additional observations from a re-analysis of the deposited data

Results flagged for a closer look

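For 4 of the 59 genes, a genotype difference ran in opposite directions in 2 settings, in every library. These differences between settings were not tested, and the share of all genes with such opposite differences was not counted. Libraries without overlap were common, with 28.1% of all genes tested higher and 14.2% lower in untreated GmNFYA roots. In 09G238200 all GmNFYA libraries lay above all Jack libraries in roots with NaCl (log2 difference 0.96) and in untreated leaves (0.32), and below them in untreated roots (-0.43). 08G169800 was likewise lower in untreated GmNFYA roots (-0.53) and higher in untreated GmNFYA leaves (0.54). The untreated leaf differences of both genes missed the threshold (edgeR adjusted p = 0.141 for 09G238200 and 0.165 for 08G169800). 04G045200 was above Jack in untreated GmNFYA roots (8.43 to 11.02 CPM against 5 to 6.94 CPM, edgeR adjusted p = 0.0507) and below it in untreated GmNFYA leaves (0 to 0.101 CPM against 0.213 to 0.38 CPM), where it did not pass the low-count filter. 18G080200 was lower in GmNFYA roots with NaCl (-1.31, or -0.69 without Jack NaCl replicate 1) and higher in untreated GmNFYA roots (1.08).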

How the results depend on the processing

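The number of genes in the set depended on the leaf condition. It was 107 with no leaf condition and 5 with at least 1 CPM asked for in each leaf group. With 0.1 in place of 0.5 added to the means it was 83, of which 34 were among the 59, with 1 added it was 43 (40 shared), and with TMM-scaled CPM 55 (54 shared). Leaving out 1 library at a time gave 56 to 65, and 46 of the 59 stayed in whichever library was left out. Genes called for genotype in untreated roots numbered 24 to 35 with 1 library left out, instead of 29, and in NaCl roots 10 to 17, instead of 14, or 8 when the fit held the 2 compared groups alone. DESeq2 called 32 and 20. In leaves the count was 0 to 1 without NaCl and 1 to 2 with it. With the replicate block, 26 genes were called in untreated roots and 13 in NaCl roots. The calls of 08G122200 in untreated roots and 13G106400 with NaCl were then lost (edgeR adjusted p = 0.0629 and 0.0532). In leaves with NaCl, where libraries of the same number deviated together, the count stayed at 1. Among named genes, 358 of 389 alternative values kept direction and call, 31 lost the call and 0 changed direction. The depth limits leaf values to a few reads per gene for 50 of the 59.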
